A study of Mus musculus with 3 samples.

Results

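The 9 genes described here belong to the glucocorticoid pathway of the heart: the receptor genes Nr3c1 and Nr3c2, the hormone-activating enzyme gene Hsd11b1, and 6 genes known to be induced by glucocorticoids, Fkbp5, Tsc22d3, Zbtb16, Sgk1, Cebpd and Klf15. They were taken by symbol from a table of 18038 genes, and all 9 were found in it. The samples are 3 WT hearts at postnatal day 9 from the widely used inbred mouse strain C57BL/6J. No treatment is given in the labels, and the samples form 1 group. Hearts are named here by the replicate number of their label. The question was chosen by measured values: Fkbp5 was known to be highest in heart 1, lower in heart 2 and lowest in heart 3, and the other induced genes were then examined for that order. The values of Fkbp5 are therefore given as a description, with no test.

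Glucocorticoids are adrenal steroid hormones that bind a receptor held in the cytoplasm by heat shock proteins. The bound receptor enters the nucleus and switches genes on or off, in many cases at a palindromic DNA element. Cardiomyocytes carry both the glucocorticoid receptor and the mineralocorticoid receptor, which also binds glucocorticoids, and glucocorticoid signalling is known to promote maturation of the heart around birth.

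The sequences before the start sites of 3 induced genes are shown because they differ in the receptor's element. Promoter windows of RefSeq (GRCm38.p6, 250 bases before to 50 bases after a start site) were searched on both strands for 3 motifs. The full palindrome is the arm AGAACA, any 3 bases and the arm TGTTCT. The relaxed core, which lies within it, is GNACA, any 3 bases and TGTNC, where N is any base. The single arm is AGAACA, which also forms part of the full palindrome. Windows were listed for 6 of the 9 genes: Nr3c2, Hsd11b1, Fkbp5, Tsc22d3, Sgk1 and Klf15. Each sequence below runs 5′ to 3′ in the direction of its gene and holds the 250 bases before the start site, with motif matches in capitals. The Fkbp5 window is chr17:28486150-28486399 on the minus strand, the Tsc22d3 window is chrX:140600523-140600772 on the minus strand, and the Sgk1 window is chr10:21993640-21993889 on the plus strand.
Fkbp5: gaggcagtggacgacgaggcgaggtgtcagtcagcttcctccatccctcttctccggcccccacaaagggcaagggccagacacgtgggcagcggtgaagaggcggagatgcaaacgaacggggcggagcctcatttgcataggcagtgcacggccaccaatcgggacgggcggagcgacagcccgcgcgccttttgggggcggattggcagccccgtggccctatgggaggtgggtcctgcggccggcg
Tsc22d3: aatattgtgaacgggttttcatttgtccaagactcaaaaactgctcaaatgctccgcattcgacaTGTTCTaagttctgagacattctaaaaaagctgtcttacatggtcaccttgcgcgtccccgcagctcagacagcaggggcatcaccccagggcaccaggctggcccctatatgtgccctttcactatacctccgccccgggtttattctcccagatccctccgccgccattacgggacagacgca
Sgk1: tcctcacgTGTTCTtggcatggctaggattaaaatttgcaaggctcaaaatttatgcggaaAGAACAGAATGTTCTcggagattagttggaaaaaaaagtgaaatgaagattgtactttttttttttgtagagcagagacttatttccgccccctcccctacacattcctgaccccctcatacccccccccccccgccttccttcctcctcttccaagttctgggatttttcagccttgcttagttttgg

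The full palindrome was present in 1 of the 6 Sgk1 windows, as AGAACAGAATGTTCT from 189 to 175 bases before the start site, and in none of the windows of the other 5 genes. Of 32851 windows in the RefSeq table, 3 held it (0.00913%), and 156 (0.475%) held the relaxed core, which among the 6 genes was again found in that Sgk1 window. The single arm was present in 1 of 3 Tsc22d3 windows and 3 of 6 Sgk1 windows, against 19.0% of all windows. No motif match was found for Fkbp5, Klf15, Nr3c2 or Hsd11b1. Of 26 genes with windows in a wider list of induced genes described further on, 0 held the full palindrome, 3 the relaxed core (Mt1, Map3k6 and Trim63) and 4 the single arm. These are counts of genes with a match in any of their windows, so they are not comparable with the shares of windows above. These are matches of letters within the windows. The counts per gene do not show which start site was used.

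Library totals ranged from 17766501 to 18768094 counts. At or above 1 CPM (counts per 1000000 counts of the library) in all 3 hearts were 12958 genes, called detected, and 8 of the 9 genes were among them. Heart muscle markers were abundant in every heart, with Myl2, a ventricular light chain, at 26128 ± 998 TPM (the deposited FPKM rescaled so that a heart sums to 1000000; SD, n = 3 throughout), Actc1, cardiac actin, at 20958 ± 2984 TPM and Tnnt2, cardiac troponin T, at 12910 ± 1549 TPM. All 4 Y-linked genes examined were detected in every heart (Eif2s3y at 105 ± 4.89, Ddx3y at 32.2 ± 5.19 and Uty at 11.1 ± 0.781 TPM). Heart 1 stood apart in airway genes: the 7 lung markers summed to 1620 TPM in heart 1, 0.740 TPM in heart 2 and 6.46 TPM in heart 3. Scgb1a1 and Scgb3a2, secretory proteins of the airway, had 4096 and 1665 counts in heart 1, and Sftpd, a surfactant protein, had 38 counts in heart 1 and 0 counts in hearts 2 and 3. Separate animals or litters are not given in the labels, so p-values measure only how far these samples spread, and that spread may be technical.

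**Figure D1:**
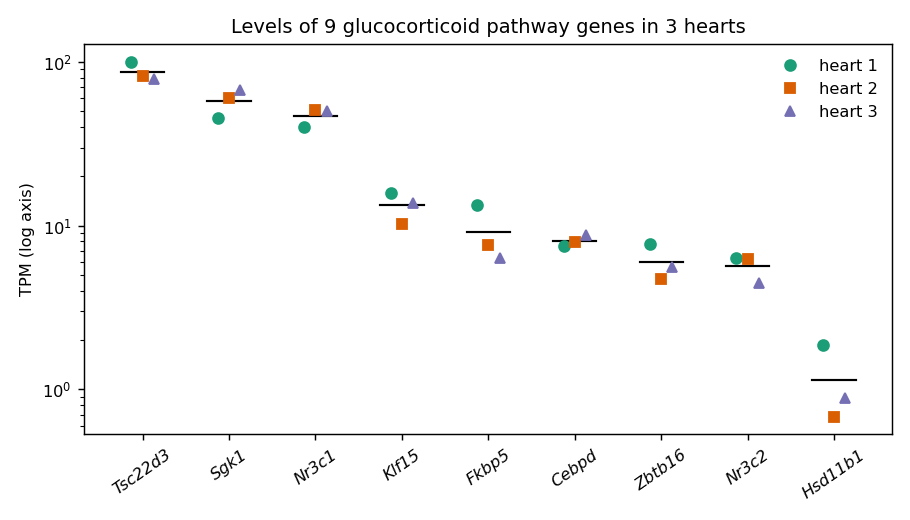
Level of each of the 9 genes in TPM on a log axis, with 1 point per heart and a bar at the mean of 3 hearts. Tsc22d3, Sgk1 and Nr3c1 lie above the other 6 genes in every heart, and Hsd11b1 is the lowest.

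The glucocorticoid receptor transcript Nr3c1 was the more abundant of the 2 receptor transcripts. Nr3c1 (gene ID 14815, GRCm38 chromosome 18, 39410545 to 39519416, minus strand) was at 39.8, 51.0 and 50.3 TPM in hearts 1, 2 and 3. Nr3c2, the mineralocorticoid receptor (ID 110784, chromosome 8, 76900179 to 77245065, plus strand), was at 6.35, 6.24 and 4.48 TPM. Nr3c1 was thus lowest in heart 1, and Nr3c2 was lowest in heart 3. Within a heart Nr3c1 exceeded Nr3c2 by a log2 ratio of 3.06 ± 0.421, and by 2.65, 3.03 and 3.49 in hearts 1, 2 and 3. No test is given for these ratios, since with 3 hearts the smallest p of an exact sign-flip test is 0.25. The hearts are whole tissue, so fewer cells of a type and less RNA per cell cannot be told apart here or below.

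The receptor transcripts did not share an order of hearts. On TMM-scaled CPM (counts adjusted for library composition) Nr3c1 was 1.29-fold higher in heart 2 and 1.33-fold higher in heart 3 than in heart 1, and hearts 2 and 3 differed by less than counting error. Nr3c2 was 1.36-fold higher in heart 1 than in heart 3 (95% counting interval 1.12 to 1.64) and was within counting error between hearts 1 and 2 (1.03-fold, 0.862 to 1.23). Against the variation of genes of like abundance neither passed the edgeR goodness of fit test (adjusted p = 1.00 for both).

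Hsd11b1, the enzyme that turns inactive 11-keto steroid back into active glucocorticoid, was near the limit of these libraries. It had 21, 8 and 11 counts in hearts 1, 2 and 3, or 1.86, 0.680 and 0.889 TPM, below the minimum of 1 CPM in hearts 2 and 3. Hearts 1 and 2 differed beyond counting error, whereas hearts 1 and 3 and hearts 2 and 3 did not. The table places Hsd11b1 (ID 15483) on chromosome 1 from 193203038 to 193264049 on the plus strand, whereas GENCODE vM21 has it from 193221634 to 193264075 on the minus strand, overlapping Lamb3 on the opposite strand. Reads of overlapping genes cannot be told apart without a stated strand setting, so its low counts are uncertain. H6pd, which supplies the cofactor of this enzyme inside the endoplasmic reticulum, was at 24.9 ± 4.18 TPM, and the log2 ratio of Hsd11b1 to H6pd was -4.57 ± 0.537. Hsd11b2, which inactivates glucocorticoid and so leaves the mineralocorticoid receptor to aldosterone in kidney, had 7, 11 and 7 counts. Nr3c2 exceeded Hsd11b2 by a log2 ratio of 3.53 ± 0.327 and was above it in 3 of 3 hearts, a ratio that rests on those few counts. Nr3c1 exceeded Hsd11b1 by 5.49 ± 0.948 and Hsd11b1 exceeded Hsd11b2 by 1.09 ± 1.03, with the smallest ratio, 0.04, in heart 2. In that heart Hsd11b1 had fewer counts than Hsd11b2 (8 against 11), so the sign there rests on the length correction.

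Fkbp5, the co-chaperone that lowers the hormone affinity of the receptor and is induced by it, had the largest fold between hearts among the detected genes of the set. It was chosen by its values in these same hearts, so this rank is no result. Fkbp5 (ID 14229, chromosome 17, 28398753 to 28486149, minus strand) was at 13.5, 7.64 and 6.36 TPM, from 464, 271 and 235 counts, in hearts 1, 2 and 3. Heart 1 was thus high, and hearts 2 and 3 were close to each other. On TMM-scaled CPM Fkbp5 was 1.75-fold higher in heart 1 than in heart 2 (95% counting interval 1.51 to 2.05) and 2.01-fold higher than in heart 3 (1.72 to 2.37). Heart 2 was 1.15-fold above heart 3, and this interval included 1 (0.960 to 1.37), so the last step of the order of Fkbp5 lies within counting error. The gene overlaps the antisense transcript AC154912.1 in GENCODE vM21, whose reads cannot be told apart from its own.

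Tsc22d3, which encodes the leucine zipper protein GILZ, a mediator of glucocorticoid effects on inflammation, had the highest TPM of the 9 genes. Tsc22d3 (ID 14605, chromosome X, 140539528 to 140600522, minus strand) was at 100.2, 81.8 and 78.5 TPM in hearts 1, 2 and 3. It was therefore highest in heart 1, as Fkbp5 was, by 1.23-fold over either other heart. Its counts in hearts 2 and 3, 1511 and 1508, did not differ beyond counting error (0.997-fold for heart 2 over heart 3 on TMM-scaled CPM, 0.928 to 1.07). Which of these 2 hearts came second depended on the scaling: heart 3 with TMM and with DESeq2 size factors, and heart 2 with library totals or deposited FPKM.

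Zbtb16 and Klf15 were also highest in heart 1, but lowest in heart 2. Zbtb16, a zinc finger repressor also called PLZF (ID 235320, chromosome 9, 48651797 to 48837264), was at 7.68, 4.74 and 5.61 TPM in hearts 1, 2 and 3. Each of the 3 pairs of hearts differed beyond counting error, with heart 1 above heart 2 by 1.66-fold and above heart 3 by 1.31-fold, and heart 3 above heart 2 by 1.27-fold. The table lists Zbtb16 on the plus strand and GENCODE vM21 on the minus strand, and the length its deposited values imply is longer than its longest transcript there, so its counts and its order of hearts are uncertain. Klf15, a zinc finger factor that controls amino acid and lipid metabolism in heart muscle (ID 66277, chromosome 6, 90462545 to 90479689, plus strand), was at 15.9, 10.2 and 13.8 TPM. Klf15 was 1.51-fold higher in heart 1 than in heart 2 and 1.37-fold higher in heart 3 than in heart 2. Its difference between hearts 1 and 3 was within counting error (95% counting interval 0.947 to 1.29).

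Adipocyte genes had their lowest level in heart 2 as well. Of 8 adipocyte markers, 6 were detected, and 5 of these varied between hearts past the edgeR test, against 1.65% of all detected genes. The marker list was chosen with earlier results of these data known. Ucp1, the uncoupling protein of brown fat, was at 301, 120 and 201 TPM in hearts 1, 2 and 3 (edgeR adjusted p = 1.80e-06). Plin1, a lipid droplet coat protein, was at 21.0, 7.18 and 13.1 TPM (edgeR adjusted p = 0.000607), and the hormone gene Adipoq was at 29.4, 11.5 and 23.6 TPM (edgeR adjusted p = 0.00474). Cfd and Cidec also passed (edgeR adjusted p = 0.00600 and 0.00263), while Cidea, at 122, 79.3 and 107 TPM, did not (edgeR adjusted p = 0.399). The 8 markers summed to 501 TPM in heart 1, 226 TPM in heart 2 and 369.5 TPM in heart 3, and Retn, with 3, 0 and 6 counts, was the one at 0 in a heart. All 5 calls were lost without heart 2, and none of them without heart 1 or without heart 3. The part of fat tissue in the levels of Zbtb16 and Klf15 was not tested.

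**Figure D2:**
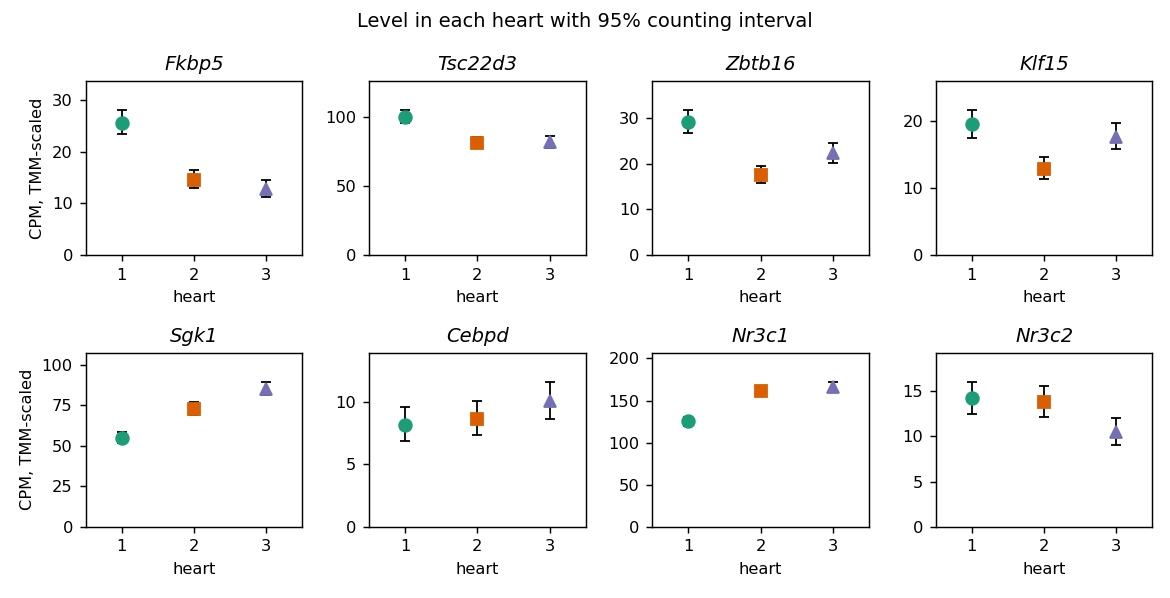
TMM-scaled CPM of the 8 detected genes in hearts 1, 2 and 3, with exact Poisson 95% intervals that cover counting error only. Fkbp5, Tsc22d3, Zbtb16, Klf15 and Nr3c2 are highest in heart 1, whereas Sgk1, Cebpd and Nr3c1 are lowest there.

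Sgk1 and Cebpd ran the other way, with the lowest level in heart 1. Sgk1, a kinase that responds to glucocorticoid, mineralocorticoid and cell volume and keeps sodium channels at the membrane (ID 20393, chromosome 10, 21882184 to 21999903, plus strand), was at 45.4, 60.4 and 67.5 TPM in hearts 1, 2 and 3. It was 1.55-fold higher in heart 3 than in heart 1, and each of the 3 pairs of hearts differed beyond counting error. Of its 6 promoter windows, 1 held the full palindrome shown above, and the counts do not show which start site was used. Cebpd, a transcription factor of adipocyte differentiation and inflammation (ID 12609, chromosome 16, 15887286 to 15897838, plus strand), was at 7.47, 7.90 and 8.78 TPM, with no pair of hearts apart beyond counting error. Its counts were not whole numbers (147.26, 160.3 and 185.7). Its table entry reaches past the GENCODE end at 15891031, and the gene overlaps Spidr on the opposite strand, so part of its reads is uncertain.

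Set against Fkbp5, none of the 5 other induced genes had the order heart 1, heart 2, heart 3 on TMM-scaled CPM, an order held by 20.0% of the 12958 detected genes. Tsc22d3, Zbtb16 and Klf15 had the order heart 1, heart 3, heart 2, held by 16.0% of detected genes. Sgk1 and Cebpd had the reverse of the Fkbp5 order, held by 21.9%. With library totals or deposited FPKM, 1 of 5, Tsc22d3, joined the Fkbp5 order. For the larger step alone, from heart 1 to heart 2, 3 of 5 went with Fkbp5 and 2 of 5 against it, beside 48.2% of detected genes that were higher in heart 1 than in heart 2. For Tsc22d3, as for Fkbp5, the step between hearts 2 and 3 was within counting error, so the orders of these 2 genes are not shown to differ. Outside the induced genes, Nr3c2 was the 1 other gene of the set in the Fkbp5 order, with hearts 1 and 2 within counting error.

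By size, at least 1.5-fold higher in heart 1 than in heart 2 were Fkbp5, Zbtb16 and Klf15, 3 of 8 detected genes of the set, against 3.32% of all detected genes. At least 1.5-fold higher in heart 1 than in heart 3 was Fkbp5 alone, against 4.23%. At least 1.5-fold higher in heart 3 than in heart 1 was Sgk1 alone, against 4.02%. In the other directions the count was 0 of 8, against 2.39% for heart 2 over heart 1, 1.67% for heart 3 over heart 2 and 195 of 12958 genes for heart 2 over heart 3. Nothing is read from these shares, since Fkbp5 was chosen for this contrast. In the edgeR goodness of fit test, which asks whether a gene varies between hearts more than genes of like abundance, 1.65% of detected genes (214) passed. Of the 7 detected genes other than Fkbp5, 0 passed. Sgk1 and Zbtb16 had unadjusted edgeR p-values of 0.0136 and 0.0155, and they were the only 2 of the 7 under 0.05, with edgeR adjusted p of 0.373 and 0.405. The same test with the dispersion trend of DESeq2 also passed 0 of 7, with 2 under 0.05 unadjusted. The misses do not show that the levels were equal. The counting intervals above set 6 of the 7 apart between at least 1 pair of hearts, but that is common in these libraries. With counting error alone, the edgeR test passed 6073 of the 12958 detected genes.

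In level, the 9 genes fell into steps. Tsc22d3 (86.8 ± 11.7 TPM) was above Sgk1 (57.8 ± 11.3 TPM) and Sgk1 above Nr3c1 (47.1 ± 6.28 TPM) in every heart, by log2 ratios of 0.60 ± 0.485 and 0.29 ± 0.123. Klf15 followed at 13.3 ± 2.87 TPM, above Fkbp5 in every heart. Fkbp5 at 9.15 ± 3.78, Cebpd at 8.05 ± 0.666, Zbtb16 at 6.01 ± 1.51 and Nr3c2 at 5.69 ± 1.05 TPM formed a group without a fixed order. Fkbp5 was above Cebpd in 1 of 3 hearts, Cebpd above Zbtb16 in 2 of 3 and Zbtb16 above Nr3c2 in 2 of 3. Hsd11b1 was last at 1.14 ± 0.628 TPM. Among all detected genes, the mean TPM of Tsc22d3 was above 86.5%, that of Nr3c1 above 75.3% and that of Fkbp5 above 29.8%. Tsc22d3 and Sgk1 exceeded Fkbp5 within hearts by 3.31 ± 0.375 and 2.72 ± 0.860. Zbtb16 was below Fkbp5 by -0.56 ± 0.332, a sign that turned with other gene lengths: the length implied for Zbtb16 by the deposited values, 7576 bases, is longer than its longest GENCODE transcript of 5114 bases. The order of Sgk1 and Nr3c1 also depends on gene length. Without a length correction Nr3c1 was higher, at 125, 161 and 166 TMM-scaled CPM in hearts 1, 2 and 3, against 54.8, 72.7 and 85.1. On this scale Nr3c1 was also above Tsc22d3 (100, 81.4 and 81.6), and Klf15 was below Fkbp5 in hearts 1 and 2. The longest GENCODE transcript of Sgk1 has 3096 bases, against an implied length of 2397.

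The listed receptor chaperones, immunophilins and their partners were abundant. All 12 were detected, led by Hspa8 at 1514 ± 95.5, Hsp90ab1 at 1145 ± 35.7 and the co-chaperone Bag1 at 224 ± 11.4 TPM, and 0 of 12 passed the edgeR test (0 of 12 had an unadjusted p under 0.05). As 1.65% of all detected genes passed, a count of 0 in so short a list does not show level expression. Heart 1 was lowest for 8 of 12, against 40.3% of detected genes, and the highest and lowest hearts differed by up to 1.24-fold, for Ppid. Fkbp4, the partner that favours hormone binding and opposes Fkbp5, was at 205, 209 and 223 TPM in hearts 1, 2 and 3. The log2 ratio of Fkbp5 to Fkbp4 was -3.93 in heart 1, -4.78 in heart 2 and -5.13 in heart 3, with Fkbp5 below Fkbp4 throughout. Against Ppid, a further immunophilin of the complex (61.8 ± 5.43 TPM), the ratio was -2.83 ± 0.689. All 12 receptor coregulators were detected, with the methyltransferase Carm1 at 68.7 ± 6.01, the chromatin remodeller Smarca4 at 53.7 ± 4.87 and the corepressor Ncor1 at 46.1 ± 4.94 TPM, and 0 of 12 passed (1 of 12 under 0.05 unadjusted). Of 12 genes of corticosteroid synthesis and metabolism, 9 were in the table and 4 detected, H6pd, Star, the efflux pump Abcb1a (7.13 ± 1.18 TPM) and the reductase Srd5a1 (3.14 ± 0.398 TPM), with 0 of 4 past the test (0 under 0.05 unadjusted). Of the adrenal cortex markers, Star was at 2.61 ± 0.428 TPM, while Cyp11a1 had 16, 7 and 9 counts and Cyp21a1 3, 4 and 1.

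A wider list of 30 genes known to be induced by glucocorticoids was examined, of which 28 were detected. By order of hearts, 8 of 28 followed Fkbp5 (28.6%, against 20.0% of detected genes), 8 had the reverse order (28.6%, against 21.9%) and 6 had the order heart 1, heart 3, heart 2 (21.4%, against 16.0%). Heart 1 was highest for 14 of 28 genes, against 36.0% of detected genes, and lowest for 9 of 28, against 40.3%. Past the edgeR test were 4 of 28 (14.3%, against 1.65%), and 12 of 28 had an unadjusted p under 0.05, against 809 of 12958 detected genes. The list was chosen with earlier results of these data known, so these shares are a description only.

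These 4 genes differed in their hearts. Angptl4, a lipase inhibitor induced in fasting, was at 130, 73.8 and 59.9 TPM in hearts 1, 2 and 3 (edgeR adjusted p = 0.000211). Mt2, a metal-binding metallothionein, was at 51.1, 22.2 and 11.3 TPM (edgeR adjusted p = 3.48e-05). Both were high in heart 1, as Fkbp5 was. Dusp1, a phosphatase of MAP kinases, was at 36.6, 81.4 and 135 TPM (edgeR adjusted p = 1.38e-14), so heart 3 was high and heart 1 low, as for Sgk1. Pck1, an enzyme of glucose and glycerol synthesis, was at 24.3, 10.2 and 32.0 TPM (edgeR adjusted p = 2.10e-08), with heart 2 low. Calls of Angptl4 and Mt2 were lost without heart 1, that of Mt2 also without heart 3, and that of Pck1 without heart 2, while Dusp1 kept its call in every alternative run.

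The most abundant genes of the wider list were Mt1, a metallothionein, at 381, 262 and 259 TPM in hearts 1, 2 and 3, the pyruvate dehydrogenase kinase Pdk4 at 293 ± 22.6 and the muscle ubiquitin ligase Trim63 at 232 ± 28.3 TPM, and none of the 3 passed the edgeR test (adjusted p of 0.601, 1.00 and 1.00). Klf9, a receptor target related to Klf15, was at 40.4, 40.8 and 39.2 TPM, and Klf15 was below it by a log2 ratio of -1.61 ± 0.339. Cebpb was at 21.5, 13.4 and 20.4 TPM, with heart 2 low as for Klf15 (edgeR adjusted p = 0.692), and Cebpd was below it by -1.17 ± 0.385.

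**Figure D3:**
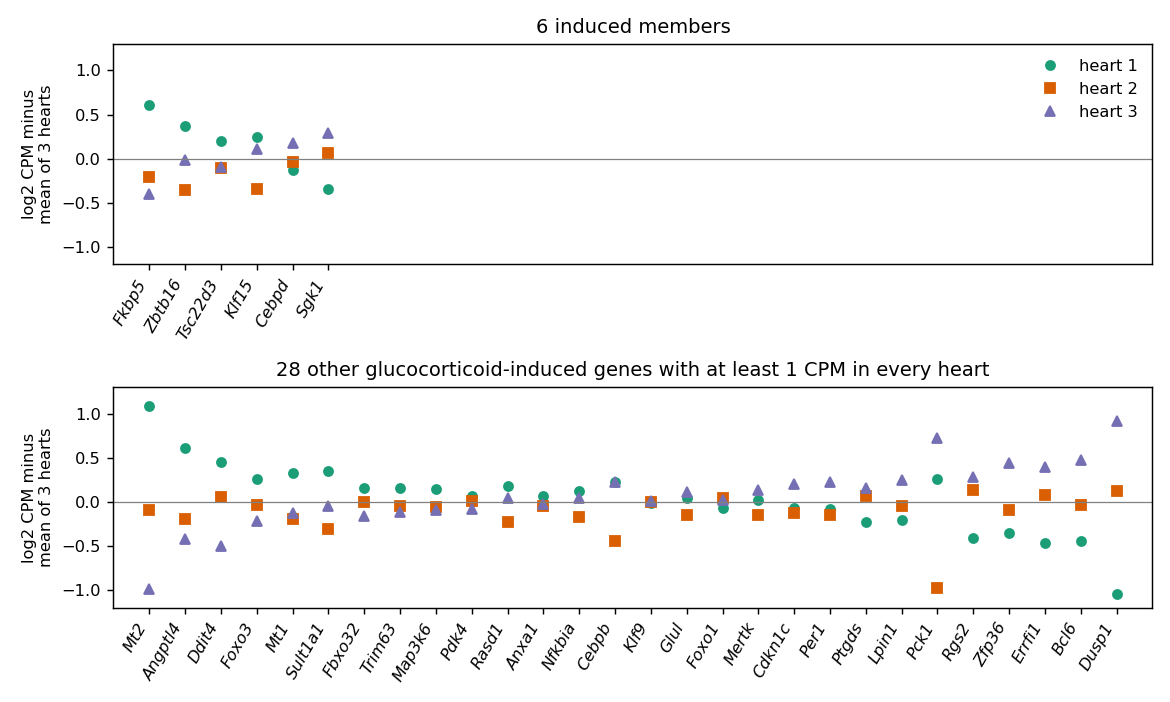
Difference of log2 TMM-scaled CPM from the mean of 3 hearts for the 6 induced genes (top) and 28 further glucocorticoid-induced genes (bottom), each ordered from heart 1 high to heart 3 high. Fkbp5, Angptl4 and Mt2 are high in heart 1, Sgk1 and Dusp1 in heart 3, and Pck1 is low in heart 2.

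Genes that glucocorticoids repress and genes of sodium transport were mostly low or not past the edgeR test. Of 12 inflammatory genes, 5 were detected, with Vcam1 at 24.8 ± 4.73, Icam1 at 12.6 ± 0.826 and Nos2 at 7.03 ± 1.55 TPM highest, and 0 of 5 passed the edgeR test (1 under 0.05 unadjusted). Of 10 genes linked to mineralocorticoid control of sodium, 7 were detected, among them Atp1b1, a beta subunit of the sodium pump (361 ± 25.6 TPM), and the kinase Stk39 (156 ± 9.65 TPM). Scnn1a, a subunit of the epithelial sodium channel, had 90, 26 and 25 counts in hearts 1, 2 and 3 and was the 1 of 7 past the test (edgeR adjusted p = 0.00243). Its call was lost without heart 1 and without heart 2. The part of airway transcripts in the level of Scnn1a was not tested.

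By the distance between their 3 log2 deviations, the genes nearest to Fkbp5 among 213 variable genes outside the set were Angptl4 (0.0263), Msln, a mesothelial surface protein (0.0666), Bcl2l11, an apoptosis activator (0.0754), Txnip, a thioredoxin inhibitor (0.0766), and Mgst1, a glutathione transferase (0.0810). Txnip was at 1333, 812 and 706 TMM-scaled CPM in hearts 1, 2 and 3, and Angptl4 at 118, 67.3 and 57.3. These 5 were picked for that pattern, so it is no result about them. The distance was 0.481 for Zbtb16, 0.520 for Tsc22d3, 0.639 for Klf15, 0.951 for Cebpd and 1.21 for Sgk1, none of which had passed the test that the 213 genes passed, so these distances are not ranked against them. The order of Fkbp5 and its reverse were common among variable genes, with 81 and 87 of 214.

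Markers of other cell types were set beside these genes. Smooth muscle and pericyte markers were lowest in heart 1 for 6 of 6 genes, against 40.3% of detected genes, and summed to 740.5, 1315 and 1581 TPM in hearts 1, 2 and 3. Acta2, smooth muscle actin, was at 303, 670.5 and 918 TPM (edgeR adjusted p = 9.77e-09, lost without heart 1) and Tagln at 62.8, 78.2 and 108 TPM (edgeR adjusted p = 0.0226, lost without any 1 heart). Rgs5, a pericyte regulator of G protein signalling, was at 267, 444 and 433 TPM and did not pass (edgeR adjusted p = 0.0613). In all, 2 of 6 passed (3 under 0.05 unadjusted). Myh11 was at 24.3, 25.2 and 29.8 TPM in hearts 1, 2 and 3, and Pdgfrb at 63.7, 76.6 and 71.7 TPM. Cspg4 was nearly level, at 19.8, 20.3 and 20.0 TPM, and none of these further markers passed. The rise of the sums above heart 1 was thus mostly that of Acta2 and Rgs5, not of every marker. Macrophage markers summed to 375, 299 and 321 TPM, with Lyz2 at 78.5 ± 10.7, C1qa at 68.9 ± 8.01 and C1qc at 65.9 ± 7.74 TPM and 0 of 7 past the test (1 under 0.05 unadjusted). Among 6 liver markers, 4 were in the table, and Ahsg, a secreted liver glycoprotein, was at 29.6, 16.5 and 10.1 TPM (edgeR adjusted p = 0.000543, lost without heart 1 and without heart 3), in the order of Fkbp5. Ttr and Apoa2 had at most 23 counts, and Apoa1 had 0 counts in hearts 1 and 2.

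Of 8 lymphocyte markers 2 were detected, with 0 past the edgeR test (0 under 0.05 unadjusted), and the 8 summed to 4.85, 8.64 and 9.45 TPM, with Cd79a at 4, 39 and 43 counts, Ptprc at 3.40 ± 0.401 TPM and Cd4 at 1.12 ± 0.0901 TPM. Cardiomyocyte, fibroblast and endothelial lists each had 0 genes past the edgeR test (0 of 8, 0 of 7 and 1 of 7 under 0.05 unadjusted), and their sums differed at most 1.07-fold between hearts. Col3a1 was at 1231 ± 77.3 and Postn at 782 ± 84.8 TPM among fibroblast markers, with Dcn at 767, 724 and 768 TPM in hearts 1, 2 and 3. Fabp4 was at 3028 ± 44.7, Cdh5 at 255 ± 22.3 and Eng at 229 ± 7.96 TPM among endothelial markers. The part of airway, fat, smooth muscle or liver transcripts in the order of any of the 9 genes was not tested.

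**Figure D4:**
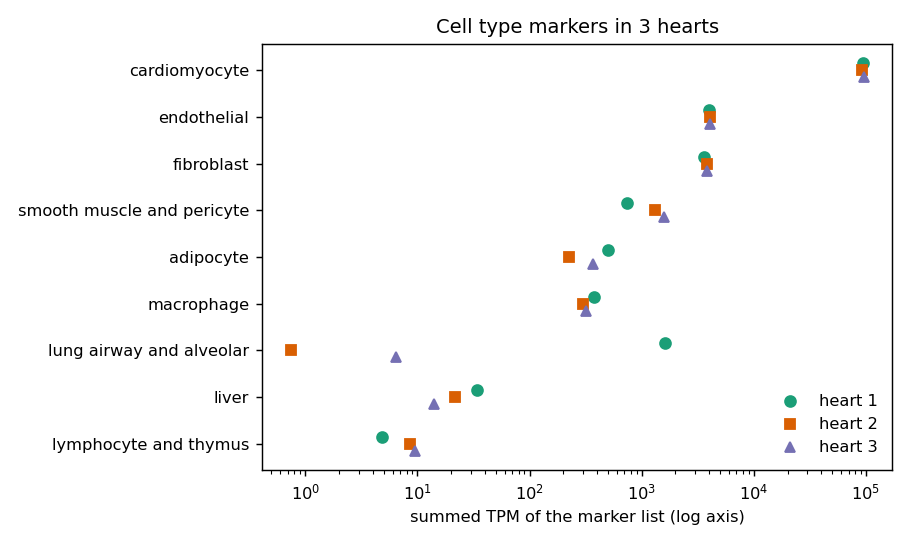
Summed TPM of 9 cell type marker lists in each heart, on a log axis. Cardiomyocyte, endothelial and fibroblast sums nearly coincide, adipocyte markers are lowest in heart 2, smooth muscle markers are lowest in heart 1, and airway markers are high in heart 1.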

How the data were processed

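The authors deposited 1 table with read counts and FPKM per gene for each of the 3 hearts, per the file headers. In each heart 87.5% to 87.6% of values were within 0.005 of a whole number, so the values the authors deposited were read to be estimated counts, and they were rounded for tests. The submitters' processing notes name HISAT and GRCm38.p6. Not given in the sources used here are the counting tool, FPKM tool, annotation and strand setting. Of the table, 1 line without values was left out.

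TPM is the deposited FPKM rescaled to 1000000 per heart. Variation between hearts was tested with edgeR 4.0.16 (R 4.3.3): TMM factors (1.02, 0.996 and 0.985), an intercept-only fit with trended dispersion, a goodness of fit test of the deviance, Benjamini-Hochberg over the 12958 genes with at least 1 CPM in every heart, threshold 0.05. The test was also run on counts simulated from the same model, which cannot show how well that model fits real genes. Folds between hearts are of TMM-scaled CPM, with exact binomial 95% intervals that cover counting error only. Pairs of hearts differed by a chi-square per degree of freedom of 9.70 to 23.7, more than sampling noise, so no pair was treated as 1 library deposited under 2 names. DESeq2 1.42.0 served as an alternative.

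The 9 genes, 17 other gene lists and 12 gene pairs were chosen with earlier results of these data known, and 6 list entries had no match. Named are the 9 genes, each list's 3 highest genes by TPM and those past the test, genes of pairs, and the 5 nearest to Fkbp5, except 1 listed gene that is not reported here. Map3k6, Retn, Apoa1, Myh11, Pdgfrb and Cspg4 were named after their values were seen. Promoter sequences are those of RefSeq for GRCm38.p6, and overlaps are from GENCODE vM21. Ratios, orders and folds carry no test.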

Additional observations from a re-analysis of the deposited data

How the results depend on the processing

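Alternatives were DESeq2 size factors, library totals, no filter on low genes, a common dispersion, the dispersion trend of DESeq2, counting error alone, deposited FPKM, a minimum step between hearts, other gene lengths and leaving out each heart. Of 214 genes past the test, the number was 165 to 259 under the first 5 of these, 6073 against counting error alone, and 73 to 108 with 1 heart left out, where the test holds fewer samples. Of the 7 detected genes other than Fkbp5, 6 passed against counting error alone and 0 in every other setting run. Of the wider list of induced genes 4 passed, 22 against counting error alone and 2 to 3 with a heart left out. Of the adipocyte markers 5 passed, and 0 to 5 with a heart left out. In the order of Fkbp5 were 0 of 5 other induced genes, 1 with library totals, 1 with deposited FPKM, and 0 to 3 with a heart left out, where an order of 2 hearts is left. With each step at least 1.1-fold, 4.81% of detected genes held the order of Fkbp5 and 0 of 5 induced genes did. The log2 ratio of Zbtb16 to Fkbp5, -0.56, was 0.42 without a length correction and 0.016 with longest transcript lengths, and the other 11 pairs kept the sign of their mean. All 12 pairs lay on 1 side of 0 in every heart, but 11 did without a length correction and 10 with longest transcript lengths. Scnn1a lost its call with no filter and with the DESeq2 trend, Cfd with the DESeq2 trend, and Tagln with no filter and with a common dispersion; the cause was not tested. No paired analysis was possible because the hearts form 1 group. A count of 0, as for Retn in heart 2, allows up to 3 counts, or 0.160 to 0.169 CPM by library, and covers counting error only. Ratios with Hsd11b1 and Hsd11b2 rest on 7 to 21 counts a heart.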
